A study of Mus musculus with 20 samples.

Results

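The genes described here are 10 transcription factors that drive the formation of fat cells: Pparg, Cebpa, Cebpb, Cebpd, Ebf1, Ebf2, Klf5, Zfp423, Rxra and Nr1h3. They were chosen by name, and their rows were taken by gene symbol from a count table of epididymal white adipose tissue (eWAT, the fat pad beside the epididymis) and one of liver. All 10 were among the 20738 genes of the eWAT table, and 9 were among the 15608 genes of the liver table. Ebf2 was not analysed in liver. The libraries came from male mice of 2 months, either wild type (WT) or IR 4A, with 5 libraries for each genotype in each tissue and 20 in all. The 4 groups were therefore eWAT WT, eWAT IR 4A, liver WT and liver IR 4A. In IR 4A mice the insulin receptor is mutated where it docks MAD2, a spindle checkpoint protein that also takes part in the endocytosis of the receptor. A count per gene does not show that mutation, so the genotype labels were not checked by it. The labels name no other allele, strain or treatment. They number the libraries but do not say which animal each came from, so every p-value measures the spread between these libraries.

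Fat cell formation runs as a cascade. Cebpb and Cebpd, with Klf5, act early and switch on Pparg and Cebpa, which then maintain each other and the genes of the mature fat cell. PPARγ binds DNA as a partner of RXRα (Rxra), as does LXRα (Nr1h3), the oxysterol receptor. Zfp423, Ebf1 and Ebf2 mark and commit fat cell progenitors and remain expressed in mature fat cells. In liver, Cebpa, Cebpb, Rxra and Nr1h3 have other roles, in hepatocyte genes, the acute phase response and lipid synthesis.

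C/EBP factors bind the Pparg promoter in this cascade, so the 250 bases before the listed start sites were searched for the C/EBP letters TTGCNNAA on both strands. RefSeq windows (GRCm38.p6) matched 7 of the 10 genes and gave 13 start sites. Cebpd, Ebf2 and Klf5 had no entry. The letters were found in 2 of the 13 windows, against 9.57% of all 32841 windows of that length. Both are shown with the window of Cebpa, which holds no match, read 5′ to 3′ with matches in capitals.
Pparg, downstream start (chr6:115421816-115422065, plus strand): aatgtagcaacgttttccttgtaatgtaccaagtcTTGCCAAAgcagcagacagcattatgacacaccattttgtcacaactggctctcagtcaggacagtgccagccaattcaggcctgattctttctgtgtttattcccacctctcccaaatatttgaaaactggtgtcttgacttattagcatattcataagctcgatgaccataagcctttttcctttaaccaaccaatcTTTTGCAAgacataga
Zfp423, upstream start (chr8:87959596-87959845, minus strand): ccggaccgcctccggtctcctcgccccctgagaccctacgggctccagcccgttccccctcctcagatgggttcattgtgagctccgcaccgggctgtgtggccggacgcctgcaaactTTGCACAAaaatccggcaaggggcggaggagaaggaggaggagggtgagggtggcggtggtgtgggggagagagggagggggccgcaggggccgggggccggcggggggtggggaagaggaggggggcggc
Cebpa (chr7:35119043-35119292, plus strand): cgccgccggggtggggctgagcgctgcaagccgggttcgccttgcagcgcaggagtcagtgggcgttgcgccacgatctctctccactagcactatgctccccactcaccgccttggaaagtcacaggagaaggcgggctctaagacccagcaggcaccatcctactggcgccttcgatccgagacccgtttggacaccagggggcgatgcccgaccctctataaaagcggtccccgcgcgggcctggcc
The Pparg window, before the most downstream of the gene's listed starts, held matches beginning at positions -215 and -16 from the start site. The Zfp423 window held one at -131. Neither of the other Pparg windows had a match. AGGTCA, the letters that nuclear receptors recognise singly or as repeats, were found in 4 of the 13, against 14% of all windows. A loose direct repeat of these letters and the letters of EBF factors were also searched, and 0 of the 13 windows held either. Those letters were rare in all windows, at 0.338% and 0.78%. The letters of SP and KLF factors were found in 6 of the 13, against 32.7% of all windows. A match describes letters only, and occupancy was not measured.

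Total counts ran from 13651874 to 21615358 in eWAT and from 17989420 to 24238359 in liver. The eWAT libraries carried RNA of neighbouring tissue. Epididymis markers, 12 of 12 listed, summed to between 3.24% and 4.52% of scaled counts in the IR 4A libraries and reached 3.79% in WT, but made up 0.522% in WT 4. Their mean log2 CPM (counts scaled to library size) was 2.70 in WT 4, against at least 10.06 in the other 9 libraries. The level of 10 adipocyte markers, led by Fabp4 and Cfd, was highest in WT 4 at 10.83 and lowest in IR 4A 3 and IR 4A 4 at 7.30 and 7.96. Testis and sperm markers, led by Prm2 and Smcp, ranged from 2.63 in IR 4A 5 to 8.77 in WT 2. Genotype estimates in eWAT are therefore given with and without WT 4. In liver, 10 of 11 hepatocyte markers were listed, at a mean log2 CPM of 11.97 to 12.29 in the 10 libraries.

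The first question was how much of each factor these tissues carried. CPM was divided by the length in kilobases of each gene's longest protein-coding transcript, so that genes could be compared. In WT eWAT, Cebpa was the most abundant at 79.1 ± 49.7 CPM per kb (SD, n = 5), followed by Pparg at 46.9 ± 25.9. Both orders held inside every one of the 5 WT libraries: Cebpa exceeded Pparg in 5 of 5, and Pparg exceeded Rxra in 5 of 5, although the ranges over libraries overlapped. Rxra followed at 23.9 ± 9.7 and Nr1h3 at 22.8 ± 12.2, and these neighbours were in that order in 4 of 5 libraries. Ebf1 lay at 16.3 ± 8.0 and Cebpb at 13.9 ± 3.6. The lowest were Cebpd, Ebf2, Zfp423 and Klf5, from 6.18 down to 2.69 CPM per kb. Every pair of neighbours in this order had overlapping ranges. With the median transcript length instead, Rxra at 58.9 passed Pparg at 56.4, and Ebf1 passed Nr1h3.

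In WT liver the order differed. Rxra led at 79.5 ± 10.9 CPM per kb (SD, n = 5), then Cebpa at 57.9 ± 5.5, Cebpb at 37.9 ± 9.8 and Nr1h3 at 30.9 ± 2.2. Pparg was at 3.04 ± 0.98 and Cebpd at 1.70 ± 0.27. Cebpa lay above Cebpb, and Nr1h3 above Pparg, without overlap. Klf5, Zfp423 and Ebf1 were each below 0.1 CPM per kb. In raw reads, Ebf1 totalled 11 counts over the 5 WT and 35 over the 5 IR 4A livers, Klf5 22 and 30, and Zfp423 12 and 24. Such totals are too low for the genotype test, and these 3 genes were left out of it by the filter on low counts.

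The 2 tissues were compared directly in WT, in a single edgeR quasi-likelihood fit over the 20 libraries with Benjamini-Hochberg adjustment. Genotypes were compared by the same method on the 10 libraries of each tissue. An adjusted p given for a fold change is from edgeR unless DESeq2 or the authors' table is named. Of 9 members tested, 4 were higher in eWAT, among 43.2% of 14695 genes, and 4 were lower, among 33.9%. The higher genes were Pparg, Ebf1, Zfp423 and Klf5. Pparg stood at 65.1 ± 34.6 CPM in eWAT and 10.7 ± 3.5 in liver on the joint scale (SD, n = 5 each). The log2 difference was 2.61 (SE 0.44, adjusted p = 2.8e-05). The groups did not overlap, as for 33.5% of all genes in this direction, and the difference was 2.07 without eWAT WT 4. For Ebf1, Zfp423 and Klf5 the log2 differences were 8.29, 5.96 and 3.85. These 3 genes passed the filter on low counts only through their eWAT libraries, so their difference was bound to be large.

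The members lower in eWAT were Rxra, Cebpb, Nr1h3 and Cebpa, each with known work in hepatocytes. Rxra showed a log2 difference of -3.07 (SE 0.23), Cebpb of -2.77 (SE 0.22) and Nr1h3 of -1.77 (SE 0.31), all without overlap of the groups, as for 26.9% of all genes in this direction. Cebpa differed by -0.89 (SE 0.39, adjusted p = 0.0447) with overlapping groups, and its call was lost in 15 of 26 alternative settings. Its difference was -1.46 without eWAT WT 4. Cebpd did not pass, at 0.53 (SE 0.37, adjusted p = 0.204), and its sign turned to -0.14 without that library. Leaving out eWAT WT 4 moved the split of all calls from 6348 higher and 4978 lower to 5776 and 5619.

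The main comparison was IR 4A against WT within eWAT. No member passed the adjusted threshold of 0.05 with edgeR, which called 2 of 16476 genes, or 0.0121%. None passed with DESeq2, which called 1204 genes, or with limma voom, which called 78. At an unadjusted p under 0.05, 1 member (Ebf2) was lower, against 9.24% of all genes lower and 15.9% in either direction. The estimates of all 10 members were below 0, as were 59.9% of all genes, with a members' median of -0.68 against -0.08 over all genes. Without WT 4, 8 were negative and 2 positive and the median was -0.45. Bulk tissue cannot tell fewer cells of a type from less RNA per cell.

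**Figure D1:**
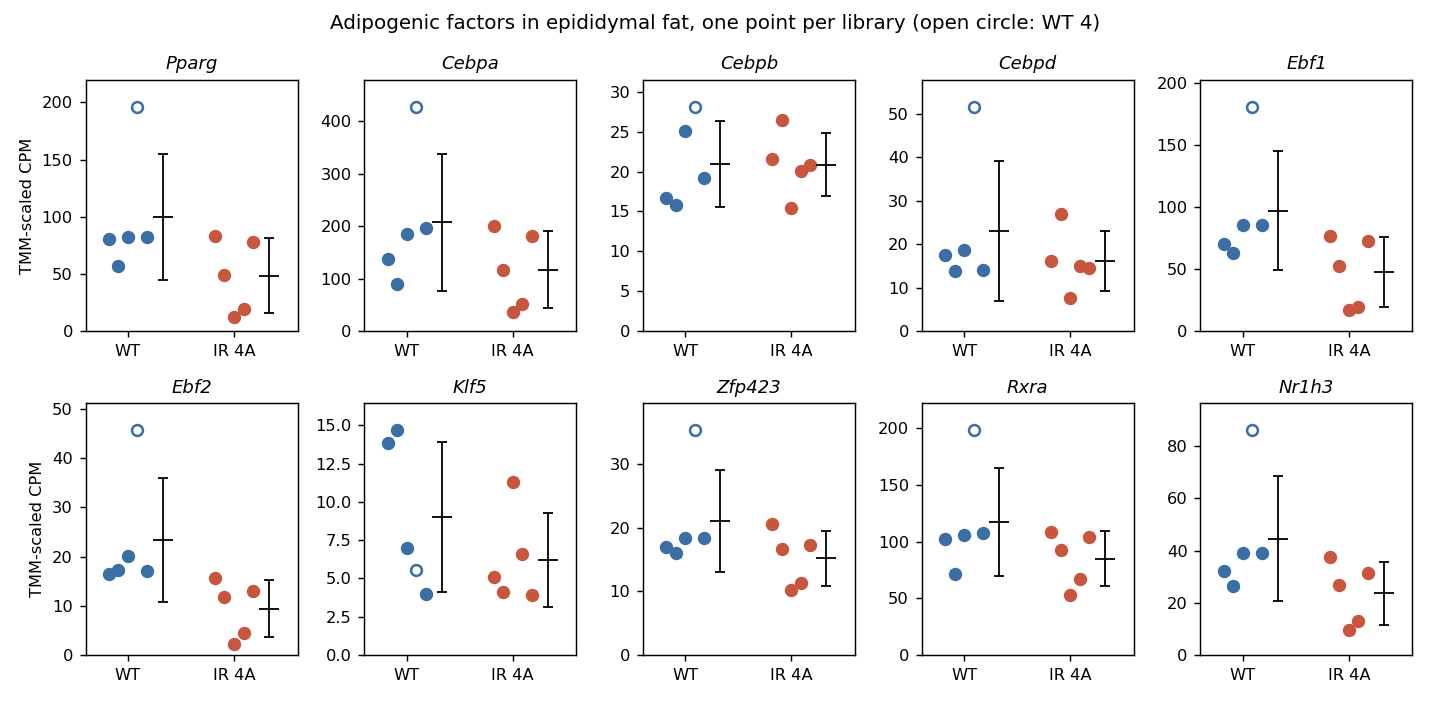
TMM-scaled CPM of the 10 factors in eWAT, one point per library, with the mean and SD of each group (n = 5) as black bars. The open circle, WT 4, is the highest WT library for every factor shown except Klf5, and IR 4A 3 is the lowest IR 4A library for every factor except Klf5.

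Pparg, the master regulator of the fat cell, measured 80.4, 56.7, 82.4, 196 and 82.6 CPM in WT 1 to 5. In IR 4A 1 to 5 it measured 83.5, 48.9, 12.2, 19.3 and 78.1 CPM. IR 4A 1 and 5 lay among the WT values, IR 4A 3 and 4 far below them, and WT 4 far above the other WT libraries, so the groups overlapped. WT averaged 99.7 ± 55.1 and IR 4A 48.4 ± 32.7 CPM (SD, n = 5). The log2 fold change was -1.04 (SE 0.55, edgeR adjusted p = 0.382), and -0.63 (SE 0.53, adjusted p = 0.65) without WT 4.

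Cebpa, which sustains Pparg in mature fat cells, showed the same arrangement of libraries. It measured 138, 89.4, 186, 428 and 198 CPM in WT 1 to 5, and 201, 116, 37.2, 52.2 and 181 CPM in IR 4A 1 to 5. The highest and lowest libraries were again WT 4 and IR 4A 3, and the groups overlapped. Its log2 fold change was -0.82 (SE 0.54, adjusted p = 0.479), and -0.37 without WT 4. Rxra and Nr1h3, the nuclear receptors, were at -0.46 (SE 0.29) and -0.91 (SE 0.44), or -0.18 and -0.53 without WT 4.

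Ebf2, a factor of progenitor commitment and of brown and beige fat identity, was the only member whose groups did not overlap. It measured 16.4, 17.2, 20.1, 45.6 and 17.0 CPM in WT 1 to 5 and 15.5, 11.9, 2.21, 4.50 and 12.9 CPM in IR 4A 1 to 5. Every IR 4A library was below every WT library, with 15.5 in IR 4A 1 just under 16.4 in WT 1. Over all genes, 3.22% were lower without overlap. The log2 fold change was -1.31 (SE 0.53, unadjusted p = 0.0334, edgeR adjusted p = 0.283). Without WT 4 it was -0.90 (SE 0.50, adjusted p = 0.516).

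Ebf1, its relative, acts upstream of Pparg and Cebpa. It measured 70.7, 63.2, 86.0, 181 and 85.5 CPM in WT, and 77.0, 52.3, 17.4, 19.4 and 73.0 CPM in IR 4A. IR 4A 1 and 5 again fell among the WT libraries. Ebf1 had a log2 fold change of -1.03 (SE 0.48, adjusted p = 0.331), and -0.67 without WT 4. Zfp423, a zinc finger factor of preadipocyte commitment, spanned 16.0 to 35.3 CPM in WT and 10.3 to 20.6 in IR 4A. Its log2 fold change was -0.47 (SE 0.27), and -0.19 without WT 4.

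The early factors behaved differently from one another. Cebpb measured 16.7, 15.8, 25.1, 28.1 and 19.2 CPM in WT and 21.6, 26.4, 15.4, 20.0 and 20.8 in IR 4A, an almost complete overlap. Its log2 fold change was -0.01 (SE 0.20, adjusted p = 0.985) and turned to 0.12 without WT 4. Cebpd ranged from 13.8 to 18.7 CPM in the other 4 WT libraries but reached 51.7 in WT 4. Its log2 fold change of -0.53 (SE 0.44) became 0.01 without WT 4.

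Klf5, an early activator of Pparg that epithelia also express, did not share this arrangement. It measured 13.9, 14.7, 6.97, 5.54 and 4.00 CPM in WT, and 5.09, 4.09, 11.3, 6.60 and 3.92 CPM in IR 4A. The 3 highest libraries were WT 2, WT 1 and IR 4A 3, which were also among the 4 highest in testis and sperm markers. The log2 fold change was -0.54 (SE 0.44, adjusted p = 0.568), and -0.67 without WT 4.

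**Figure D2:**
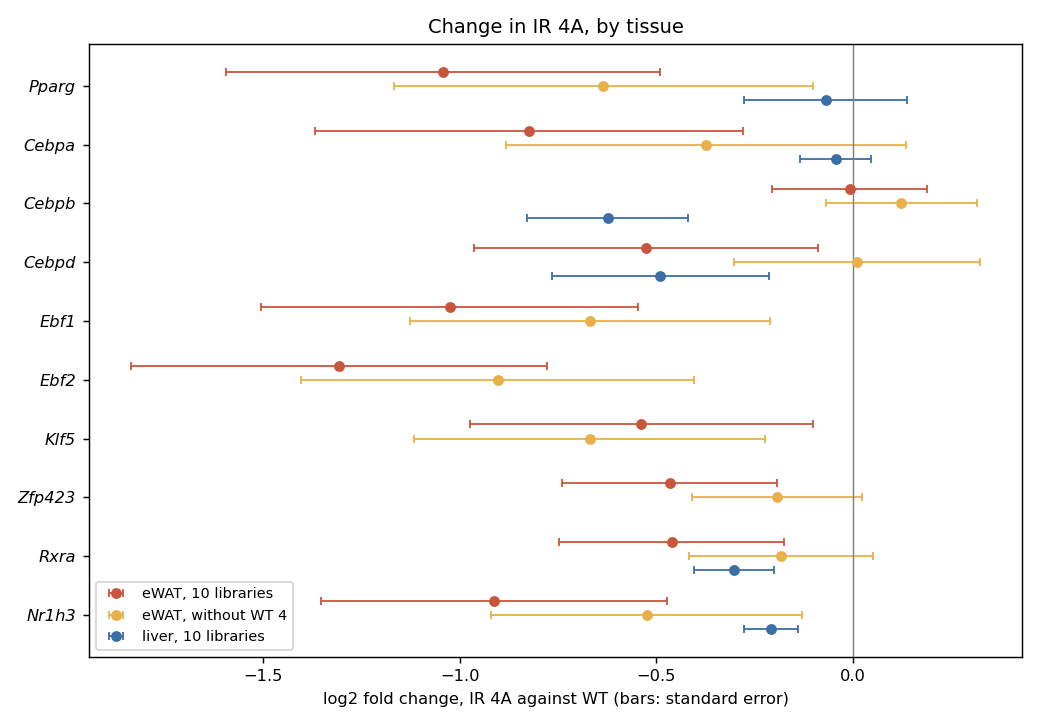
Log2 fold change of IR 4A against WT for each factor, with its standard error, in eWAT over 10 libraries, in eWAT without WT 4 and in liver over 10 libraries. Dropping WT 4 moved Pparg from -1.04 to -0.63 and Cebpd from -0.53 to 0.01, while Cebpb was lowest in liver at -0.62; Ebf1, Ebf2, Klf5 and Zfp423 have no liver estimate.

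The factors were next set against marker levels over the 10 eWAT libraries, in 20 relations (10 genes, 2 marker lists) with permutation tests on 100000 draws. Each library's marker level was taken as the average log2 CPM over the listed genes. Every adipocyte marker is also in the list of PPARγ targets given below, so Pparg is set here against its own targets. Cebpa followed the adipocyte level with Pearson's r = 0.992 and Spearman's rho = 0.988 (permutation p = 1e-05 each, the smallest these draws can give, adjusted p = 5e-05 and 6.67e-05). For Pparg, r was 0.989 (permutation p = 3e-05, adjusted p = 0.00012) and rho 0.952 (permutation p = 0.00014, adjusted p = 0.0007). Leaving out IR 4A 3 and IR 4A 4, the libraries farthest from the median, gave r = 0.99 and 0.956. Nr1h3, Ebf1, Rxra and Zfp423 had r between 0.954 and 0.989 and rho between 0.891 and 0.988, with adjusted permutation p of at most 0.00373. With Pparg itself, Rxra had r = 0.931 and ranked 1018 of 16476 genes, so many genes had values of this size. The level of endothelium markers was also lowest in IR 4A 3 and IR 4A 4, at 4.26 and 4.32, and highest in WT 4 at 6.87. Relations with that list, and the share of all genes that follow the adipocyte level, were not computed.

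Ebf2 had r = 0.955 (permutation p = 0.00058, adjusted p = 0.00166), but its rho was 0.624 (permutation p = 0.0601, adjusted p = 0.0802), and r was 0.803 without the same libraries. Cebpb did not pass after adjustment, with r = 0.635 (permutation p = 0.0448, adjusted p = 0.0597) and rho = 0.612 (permutation p = 0.067, adjusted p = 0.0837). Cebpd had r = 0.757 (permutation p = 0.0156, adjusted p = 0.0283) and rho = 0.479 (permutation p = 0.165, adjusted p = 0.183). Klf5 had r = -0.437 with the adipocyte level (permutation p = 0.205, adjusted p = 0.205). With the testis and sperm level, Klf5 had r = 0.841 (permutation p = 0.00314, adjusted p = 0.00785) and rho = 0.806 (permutation p = 0.00756, adjusted p = 0.0216), and r = 0.868 without IR 4A 4 and WT 2. The other 9 members had negative r with that level, from -0.759 for Cebpa to -0.491 for Ebf2, and 4 of these (Cebpa, Cebpb, Zfp423 and Rxra) had an adjusted permutation p under 0.05 for r. For rho this held for Cebpa, Zfp423 and Rxra but not for Cebpb (rho = -0.636, adjusted permutation p = 0.0776). The share of all genes that follow the testis and sperm level, in either direction, was not computed. With 5 libraries a genotype, no relation was computed within a genotype.

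**Figure D3:**
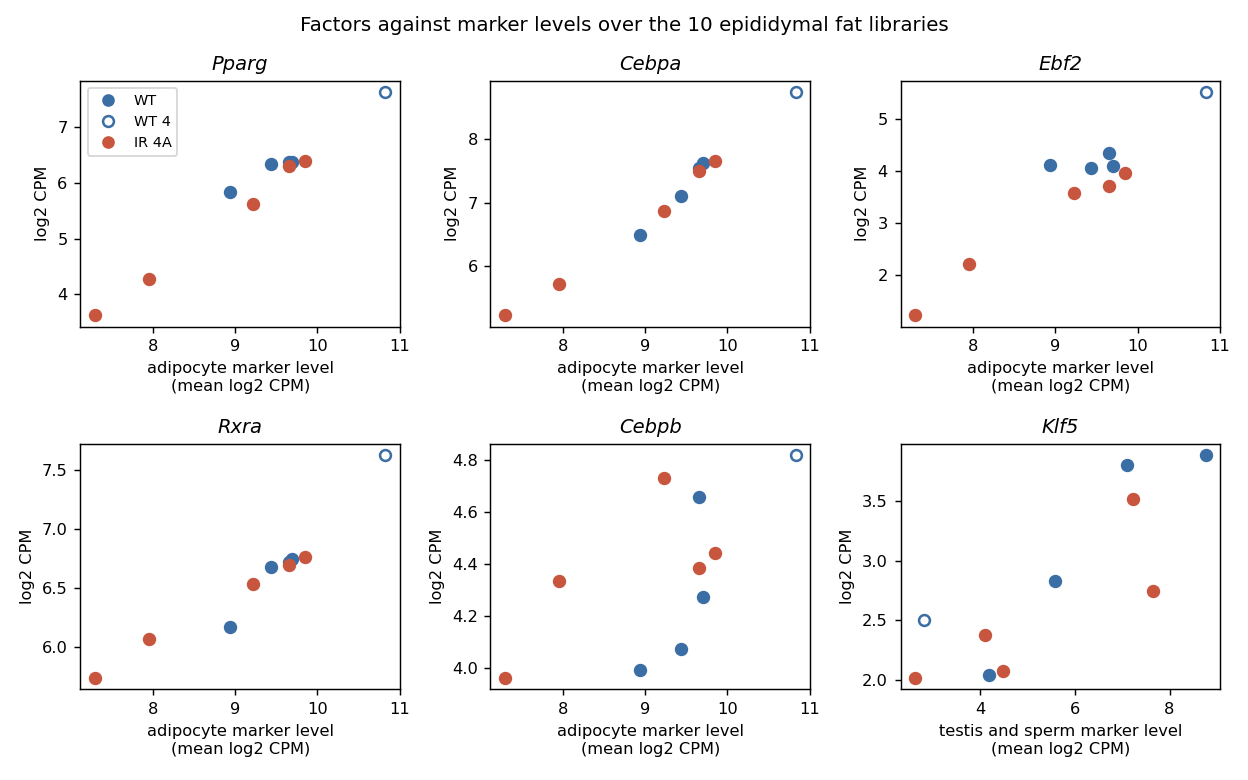
Log2 CPM of 6 factors (vertical) against the mean log2 CPM of a marker list (horizontal), one point per eWAT library, adipocyte markers for 5 factors and testis and sperm markers for Klf5. Pparg, Cebpa and Rxra lie along a line from IR 4A 3 at 7.30 to WT 4 at 10.83, Cebpb scatters, and Klf5 is higher where testis and sperm markers are higher.

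Expressed relative to the adipocyte level (log2 CPM of the factor minus the level), the span of Cebpa over the 10 libraries shrank from 3.52 to 0.38 log2 units and that of Pparg from 3.99 to 0.58. The spans of Nr1h3, Ebf1, Ebf2 and Cebpd shrank as well, to between 0.63 and 1.84. Those of Rxra (1.90 to 1.63) and Zfp423 (1.77 to 1.76) hardly moved, while Cebpb widened from 0.86 to 2.67 and Klf5 from 1.87 to 4.54. On this scale Cebpa differed by 0.00 between genotypes and Nr1h3 by -0.05. Pparg lay at -3.33 to -3.10 in WT and -3.68 to -3.37 in IR 4A, a difference in means of -0.35 with no overlap. Ebf2 lay at -5.60 to -4.82 in WT and -6.08 to -5.64 in IR 4A, a difference of -0.57, also with no overlap. Ebf1 differed by -0.26 and overlapped. The other 5 members were higher in IR 4A on this scale, Cebpb by 0.92, Cebpd and Rxra by 0.48, Zfp423 by 0.47 and Klf5 by 0.45, all with overlap. Over all genes, 0.218% were lower without overlap on this scale, where the median gene was higher by 0.85 in IR 4A. With the median so shifted, that share is no yardstick for genes that follow the adipocyte level. A share among those genes was not computed. In an edgeR fit with the adipocyte level as a covariate, an alternative chosen after seeing the data, Pparg was at -0.30 (adjusted p = 0.0754) and Ebf2 at -0.62 (adjusted p = 0.0699). That fit called 1028 genes, 61 higher and 967 lower, and none of the 10 members. Which of the cell types in the pad set these levels was not tested.

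Genes among those most like Pparg across the 10 eWAT libraries were Amy1 and Abcd2, each with Pearson's r of 0.997 on log2 CPM among 16476 genes. Among the members, Ebf1 was nearest at r = 0.991, ranked 34, then Nr1h3 at 0.987, ranked 67, and Ebf2 at 0.977, ranked 192. Cebpa ranked 255 at 0.973. Cebpb at 0.539 and Klf5 at -0.317 were the least like it. These values describe libraries that share the marker differences given above.

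Other genes of the pathway were taken from fixed lists, and none passed in eWAT. Of 24 PPARγ targets of the fat cell, which include every adipocyte marker, all 24 had negative estimates with a median of -0.73. Without WT 4, 20 were negative with a median of -0.34. Pnpla2, which starts triglyceride breakdown, was at -0.996 (-0.62 without WT 4), and Aqp7, a glycerol channel, at -0.50 (-0.26). Among 14 other pro-adipogenic factors, 13 were negative with a median of -0.39, but 10 were negative and 4 positive with a median of -0.17 without WT 4. The smallest unadjusted p was that of Klf4 at -0.87 (SE 0.23, unadjusted p = 0.00399, adjusted p = 0.203), and at -0.72 without WT 4. Klf9 and Nfia were at -0.66 and -0.48, or -0.45 and -0.28 without it. Among 12 anti-adipogenic factors, 7 were negative and 5 positive, with and without WT 4. Zfp521, which opposes Ebf1 and Zfp423, was at -1.22 (SE 0.42, adjusted p = 0.241) without overlap, Klf7 at -0.45 and Gata3 at 0.48. Without WT 4 these were -0.83, -0.30 and 0.33.

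Partners and relatives of the nuclear receptors had medians nearer to that of all genes. Of 14 coregulators, 11 were negative with a median of -0.25, or -0.16 without WT 4. Ncor1, a corepressor, was at -0.39, Crebbp at -0.17 and Ncoa1 at -0.29, and at -0.32, -0.16 and -0.22 without it. Of 10 related nuclear receptors, 6 were negative and 4 positive with a median of -0.10, and without WT 4 the split was 5 and 5 with a median of -0.008. The glucocorticoid receptor Nr3c1 was at -0.67, Rxrg at -0.77 and Nr1d1 at -0.50, or -0.49, -0.32 and -0.32 without WT 4. Of 9 LXR targets tested, 8 were negative, or 7 without WT 4. Abca1 was at -0.46 and Apoe at -0.60, or -0.36 and -0.33 without WT 4. The desaturase Scd2 was at 0.43, or 0.35 without WT 4, with every IR 4A library above every WT library. Of 7 C/EBPα targets of the hepatocyte, 4 were tested in fat, and all 4 were negative with a median of -0.89. Without WT 4, 1 was negative and 3 were positive with a median of 0.38. Pck1 was at -0.97, Tat at -0.99 and Gys2 at -0.45, and these became -0.49, 0.52 and 0.24. Hepatocyte markers stood out in WT 4 and IR 4A 4, where Alb was at 243 and 174 CPM, against at most 44.6 in the other 8 libraries, and their part in these values was not tested. Of 4 acute phase genes tested, Hp was at -1.38 and did not overlap, Saa3 was at -1.90 and Orm1 at -0.90, or -1.02, -2.01 and -0.50 without WT 4.

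The levels of macrophage, progenitor and mesothelial markers also lay lower in IR 4A, although no marker passed the adjusted threshold. All 12 epididymis and all 5 cholangiocyte markers had positive estimates, with medians of 0.714 and 0.283, or 0.485 and 0.181 without WT 4. Of 10 macrophage markers, 9 were lower at an unadjusted p under 0.05, where 9.24% of all genes were lower. The mean log2 CPM of the macrophage markers was 5.32 to 6.82 in WT and 3.94 to 5.14 in IR 4A. Progenitor markers, on which Ebf2 and Zfp423 bear, were at 6.49 to 7.56 in WT and 5.09 to 6.47 in IR 4A, also without overlap, and 5 of 10 were lower at that threshold. Mesothelial markers were at 4.29 to 4.98 and 1.72 to 3.79, with 6 of 8 lower. Without WT 4, 8 macrophage, 4 progenitor and 5 mesothelial markers were lower at that threshold. The 9.24% belongs to the fit with WT 4, and the share of all genes without it is not given here. Their part in the values of the factors was not tested.

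In liver, 6 members could be tested and none passed with edgeR, which called 1 of 12421 genes, or 0.00805%. None passed with DESeq2, which called 426 genes, or with limma voom, which called 4. At an unadjusted p under 0.05, 3 members (Cebpb, Rxra and Nr1h3) were lower, against 9.48% of all genes lower and 18.1% in either direction. All 6 estimates were negative, as were 49% of all genes, with a median of -0.26 against 0.005 over all genes. No member separated the groups without overlap, which 1.83% of all genes did in the lower direction.

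**Figure D4:**
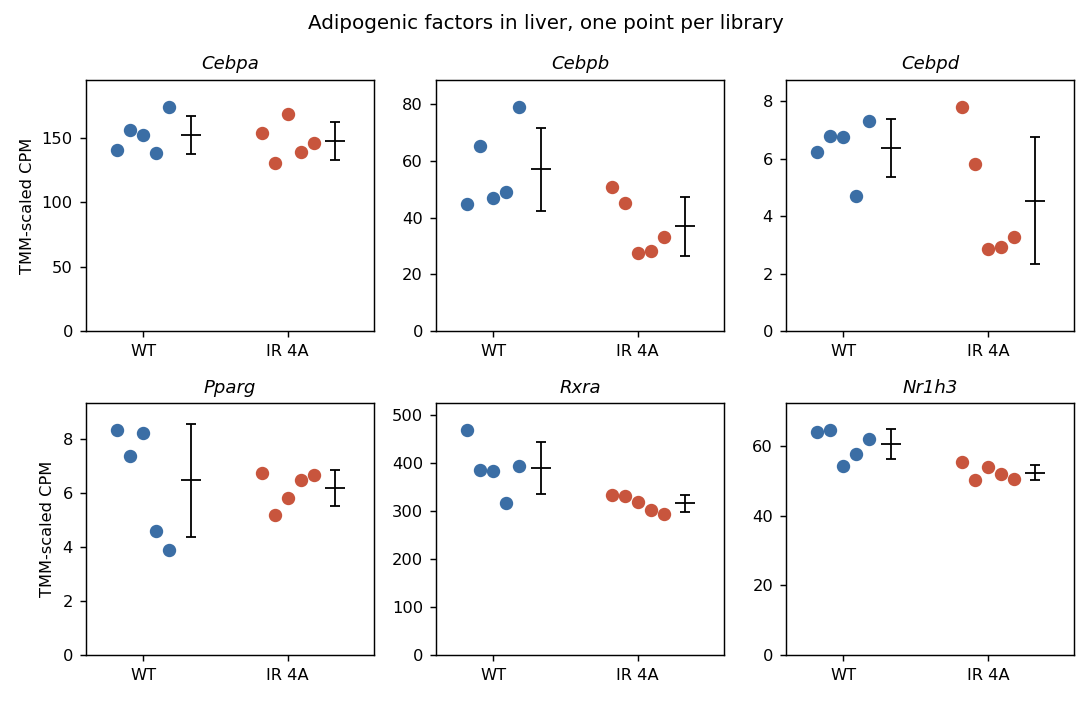
TMM-scaled CPM of the 6 factors tested in liver, one point per library, with the mean and SD of each group (n = 5) as black bars. For Cebpb, IR 4A 3, 4 and 5 lie below every WT library, and for Cebpa the groups lie on each other.

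Cebpb, which drives acute phase and gluconeogenic genes in liver, had the largest estimate. It measured 44.6, 65.1, 46.9, 49.0 and 79.1 CPM in WT 1 to 5 and 50.9, 45.0, 27.4, 28.3 and 33.3 CPM in IR 4A 1 to 5. IR 4A 3, 4 and 5 were below all WT livers, while IR 4A 1 and 2 lay among them. WT averaged 56.9 ± 14.8 and IR 4A 37.0 ± 10.5 CPM (SD, n = 5), and the log2 fold change was -0.62 (SE 0.20, unadjusted p = 0.00995, edgeR adjusted p = 0.172).

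Cebpd, its partner in the acute phase response, measured 6.23, 6.79, 6.75, 4.69 and 7.32 CPM in WT and 7.81, 5.83, 2.86, 2.92 and 3.27 CPM in IR 4A. The same IR 4A livers, 3, 4 and 5, were the low ones. Cebpd had a log2 fold change of -0.49 (SE 0.28, adjusted p = 0.369). Across the 10 livers Cebpd correlated with Cebpb at r = 0.876, ranked 61 of 12421 genes, behind Tnfrsf1b (0.964), Angptl4 (0.949) and Dpf2 (0.936), the 3 most like Cebpb.

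Nr1h3, the oxysterol receptor, measured 64.0, 64.4, 54.3, 57.8 and 61.9 CPM in WT and 55.3, 50.3, 53.8, 51.9 and 50.4 CPM in IR 4A. IR 4A 1 was the one IR 4A liver above the lowest WT liver, WT 3. WT averaged 60.5 ± 4.4 and IR 4A 52.3 ± 2.2 CPM (SD, n = 5), and the log2 fold change was -0.21 (SE 0.07, unadjusted p = 0.00942, edgeR adjusted p = 0.171). In the authors' deposited table, Nr1h3 in liver had a log2 fold change of -0.27 with an adjusted p of 0.031, where 2.5% of 13287 genes were called. On the counts its adjusted p was 0.067 with DESeq2 and 0.067 to 0.872 over the alternatives. Rxra, its partner, measured 468, 386, 384, 317 and 394 CPM in WT and 335, 331, 318, 302 and 294 in IR 4A. WT 4 was the one WT liver inside the IR 4A range. Rxra had a log2 fold change of -0.30 (SE 0.10, adjusted p = 0.175).

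Pparg and Cebpa were near equal between genotypes in liver. Pparg measured 8.30, 7.34, 8.20, 4.57 and 3.89 CPM in WT and 6.74, 5.17, 5.79, 6.46 and 6.64 in IR 4A, so the WT livers spread on both sides of IR 4A. The log2 fold change was -0.07 (SE 0.21, adjusted p = 0.891). Cebpa spanned 138 to 174 CPM in WT and 131 to 168 in IR 4A, with a log2 fold change of -0.05 (SE 0.09, adjusted p = 0.831).

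None of the listed targets passed in liver either. All 9 acute phase targets of C/EBPβ and C/EBPδ had negative estimates, with a median of -2.99. The 3 with the smallest unadjusted p were Apcs at -2.99, Saa3 at -3.15 and Saa2 at -4.58, so Apcs lay at the median. Their mean log2 CPM was highest in WT 1 at 11.03 and WT 3 at 9.65, and was 6.73 to 7.17 in the other 3 WT livers and 5.38 to 7.48 in IR 4A. Cebpb measured 44.6 and 46.9 CPM in WT 1 and WT 3, its 2 lowest WT values, and 49.0 CPM in WT 4. Whether Cebpb bears on these levels was not tested. Without WT 1 and WT 3, a choice made after seeing the data, no gene was called in liver. Of 11 LXR targets, 9 were positive with a median of 0.30, opposite in sign to Nr1h3. The desaturases Scd1 and Scd2 were at 1.19 (SE 0.32, adjusted p = 0.133) and 0.78 (SE 0.21, adjusted p = 0.139), and Srebf1 was at 0.66. The genotypes did not overlap for Scd2 but did for Scd1 and Srebf1.

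The remaining lists in liver were split in sign. Of 17 PPARγ targets tested, 8 were negative and 9 positive. The glycerol phosphate enzymes Gpd1 and Agpat2 were at -0.59 and -0.38, both without overlap, and the fatty acid transporter Cd36 at 0.63. Of 7 C/EBPα targets of the hepatocyte, 4 were negative, and Gys2 was at 0.55 without overlap, Cps1 at 0.25 and Alb at 0.19. Of 12 other pro-adipogenic factors, 8 were positive, with Klf6 at 0.51 and Zfp467 at 0.36. Of 7 anti-adipogenic factors, Tcf7l2 was at -0.34, Hes1 at 0.50 and Klf7 at 0.14. Among coregulators, Crebbp and Ncoa1 were at -0.23 and -0.22, both without overlap, and Ncoa3 at 0.28. Among related receptors, Nr1h2 (LXRβ) was at -0.17 without overlap, Nr3c1 at 0.26 and Ppard at 0.23.

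Whether the genotype difference itself differed between tissues was tested by the interaction term over 20 libraries. No member of 9 passed. Among them, Ebf1, Klf5 and Zfp423 met the filter on low counts only through their eWAT libraries, so their terms say little of liver. Over all genes, 354, or 2.41%, passed. Of these, 108 were higher and 246 lower, a split that became 161 and 180 with size-factor (RLE) scaling. At an unadjusted p under 0.05, 1 member was lower, Ebf1 at -2.43 (SE 0.96, unadjusted p = 0.0205, adjusted p = 0.146), against 14.6% of all genes, and its liver side rests on the 11 and 35 counts given above. Pparg was at -0.99 (SE 0.60, adjusted p = 0.345) and Cebpb, the one positive estimate, at 0.60 (SE 0.29, adjusted p = 0.237).

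The authors' deposited table gave larger eWAT values for some members than the count fit, with Zfp423 at -0.95 (adjusted p of 0.0513) and Rxra at -0.79 (adjusted p of 0.162), where 2.7% of 18715 genes were called. In that table Pparg was at -1.17 and Ebf2 at -1.28, neither called. Its value for Pparg in liver was -0.34, also not called, against -0.07 from the counts.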

How the data were processed

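Total RNA was extracted from liver and eWAT, and poly-A stranded libraries were sequenced as paired 100-base reads, per the labels' protocols. The submitters' processing notes name Salmon 1.8.0, DESeq2 1.32.0 and GRCm39. The authors deposited estimated counts per gene, rounded to whole numbers, for each tissue, and log2-like normalized values (transform not given in the sources used here). The authors' deposited comparison tables hold log2 fold changes, p-values, a test score and the mean normalized signal. All deposited rows had a total of at least 10. Rows with a repeated gene ID (208 in eWAT, 83 in liver) were dropped.

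Counts were fitted with edgeR 4.0.16 (filterByExpr, TMM scaling, quasi-likelihood test) under R 4.3.3 for each tissue, and over all 20 libraries for tissue contrasts, with Benjamini-Hochberg adjustment over all genes tested and a threshold of 0.05. Alternatives used DESeq2 1.42.0 and limma 3.58.1. CPM values are scaled within a tissue unless called joint, and log2 CPM has a prior count of 2. The biological coefficient of variation shared by all genes was 0.512 in eWAT and 0.187 in liver, so eWAT estimates are less precise. Transcript lengths came from GENCODE vM21. The fits were tested on simulated data. No pair of libraries of a group agreed within sampling noise.

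Named genes were all members, the 3 genes of each pathway list with the smallest unadjusted p in each tissue, the 3 most correlated with Pparg in eWAT and with Cebpb in liver, and the 2 most abundant genes of the marker lists described; a gene that this rule names is not reported here. The members and lists were chosen with earlier results of these data known.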

Additional observations from a re-analysis of the deposited data

Results flagged for a closer look

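In 38 groups of 5 libraries (each member in each group), the highest and lowest library were compared with their neighbours by Dixon's criterion, which chance meets in about 1 of 20 groups. There were 7 flags, all for the same library, eWAT WT 4, as the highest. It measured 196 CPM for Pparg, 181 for Ebf1, 45.6 for Ebf2, 86.1 for Nr1h3, 198 for Rxra, 35.3 for Zfp423 and 51.7 for Cebpd, while the next WT library measured 82.6, 86.0, 20.1, 39.2, 108, 18.4 and 18.7 CPM in the same order. These flags are not independent, since they come from 1 library, in which adipocyte markers were highest and epididymis markers lowest. Their part in these values was not tested. No member was flagged in eWAT IR 4A or in either liver group.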

How the results depend on the processing

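No member was called for IR 4A against WT in either tissue under any alternative. The counts of all genes called moved widely. In eWAT (2 as reported) they were 0 without a filter, 1 with a stricter filter (1 CPM in at least 5 libraries), 1204 with DESeq2, 78 with limma voom and sample weights, 0 with the epididymis level as covariate, 295 with all 20 libraries in one fit, 1028 with the adipocyte level as covariate, 7 with limma on the deposited normalized values, and 0 to 6 when a library was left out (0 without WT 4). In liver (1 as reported) they were 426 with DESeq2, 4 with voom, 49 with all 20 libraries, 4 on the normalized values, 0 without WT 1 and WT 3, and 0 to 143 when a library was left out (143 without IR 4A 1). For the interaction (354) they were 1273 with DESeq2, 628 with voom and 70 to 729 when a library was left out (70 without liver IR 4A 4, 729 without eWAT WT 5). For WT eWAT against WT liver (11326) they were 11035 to 11395. The cause of these moves was not tested.

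Signs turned for small estimates. In eWAT, Cebpb was at 0.033 with voom, 0.15 with the epididymis and 0.24 with the adipocyte covariate, 0.004 with all 20 libraries and -0.11 to 0.12 when a library was left out. Cebpd was at 0.11 and 0.16 with those covariates and -0.80 to 0.01 when a library was left out. Cebpa and Rxra were at 0.019 and 0.018 with the adipocyte covariate. In liver, Pparg was at -0.21 to 0.035 when a library was left out and 0.23 without WT 1 and WT 3, and Cebpa at 0.014 on the normalized values and -0.10 to 0.008 when a library was left out. In the interaction, Cebpd was at 0.69 with voom and -0.30 to 0.56 when a library was left out. Rxra was at 0.034 with voom and -0.30 to 0.18 when a library was left out. Ebf1 passed there with DESeq2 at -2.41 (DESeq2 adjusted p = 0.0347), where 1273 genes were called. Its liver side rests on 11 and 35 counts, and Ebf1 passed the filter on low counts only through its eWAT libraries. Between WT tissues, Cebpd was at -0.14 to 0.66 and Cebpa at -1.46 to -0.70 when a library was left out.

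Libraries with the same replicate number did not regularly deviate together. Correlations ran from -0.73 to 0.67 between eWAT genotypes and from -0.07 to 0.08 between liver genotypes. In each tissue, 1 of 5 WT libraries correlated best with its own number. Between eWAT and liver, correlations were -0.09 to 0.03 in WT and -0.16 to 0.07 in IR 4A. There, 0 of 5 WT and 1 of 5 IR 4A libraries correlated best with their own number. With the replicate number as a block, 0 genes were called in eWAT, 3 in liver and 0 in the interaction, where Cebpd was at 0.18, and Cebpb in eWAT was at 0.008.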
